A study of Arabidopsis thaliana with 4 samples.

Results

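Pectin methylesterases were followed in whole Arabidopsis thaliana seedlings by way of the ATH1 array, on which a set of short probes reports on a transcript. Of 60 listed pectin methylesterase loci, 39 had a probe set of their own in the platform annotation, among 13333 genes that did so on the array. The members were chosen by locus identifier and each of the 39 had a single probe set, so the rule of taking the probe set of highest mean made no choice. A further 4 loci shared 2 probe sets in pairs, and 17 had no probe set named for them and were not analysed here.

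The study compared 2 genotypes, each on 2 arrays described in the design text as biological replicates. The wild type was the Columbia gl1 line that carries a luciferase gene under the stress-responsive RD29A promoter, and the labels give the same background for the rsa3-1 mutant. Seedlings of both were 6 days old and had been held at 120 mM NaCl for 24 h. No unstressed array was analysed here, so each difference is one between genotypes under salt and not a response to salt. RSA3 encodes a xyloglucan galactosyltransferase, and rsa3-1 is a single mutant allele of it. The RSA3 transcript was not analysed here.

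Pectin methylesterases are secreted enzymes that take methyl groups off homogalacturonan, the main linear pectin of the primary wall. The freed acid groups can bind calcium, which ties chains together, or leave the chain open to polygalacturonases and pectate lyases, which cut it. Many family members are made with an inhibitor-like leading region that subtilases remove, and separate inhibitor proteins bind the mature enzymes in the wall. In seedlings the family is known for its part in cell growth and organ emergence, and several genes are known chiefly from pollen.

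Values are log2 RMA signals as deposited. Array medians lay between 6.46 and 6.51. Wild type replicate 1 stood apart in the bacterial and phage controls: 44 of those 45 probe sets were highest on that array, with a median log2 excess of 0.94 above the average of the remaining arrays. Among the 39 pectin methylesterase genes, 25 were higher in wild type replicate 1 than in replicate 2 (64.1%, against 54.9% of all probe sets). In rsa3-1, 24 of the 39 were higher in replicate 1 than in replicate 2 (61.5%, against 54.985% of all probe sets). A majority higher in replicate 1 was thus seen in both genotypes. The median absolute log2 difference between the 2 wild type arrays was 0.145 for the pectin methylesterases and 0.123 for all probe sets, and between the rsa3-1 arrays it was 0.121 and 0.110.

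Markers of shoot and root were bright on these arrays of whole seedlings. Photosynthetic shoot genes (4 of 6 measured) had signals above the 99th percentile of all probe sets, as did PYK10, a root beta-glucosidase and the root marker measured of 3 listed. In contrast, 6 of 20 pollen markers were measured and 5 of those lay in the lowest 25% of signals; the sixth, AT5G45880, ran from 4.62 to 5.10.

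By signal, 17 of the 39 pectin methylesterase probe sets lay in the lowest 25% of the 22746 probe sets tested (mean log2 signal up to 4.36), 15 between there and the median of 6.48, and 7 above the median. These positions describe brightness only, because probe sets differ in how well they bind, and the signals of 2 genes do not rank their transcripts. Without detection calls, values in the lowest 25% may be background.

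**Figure D1:**
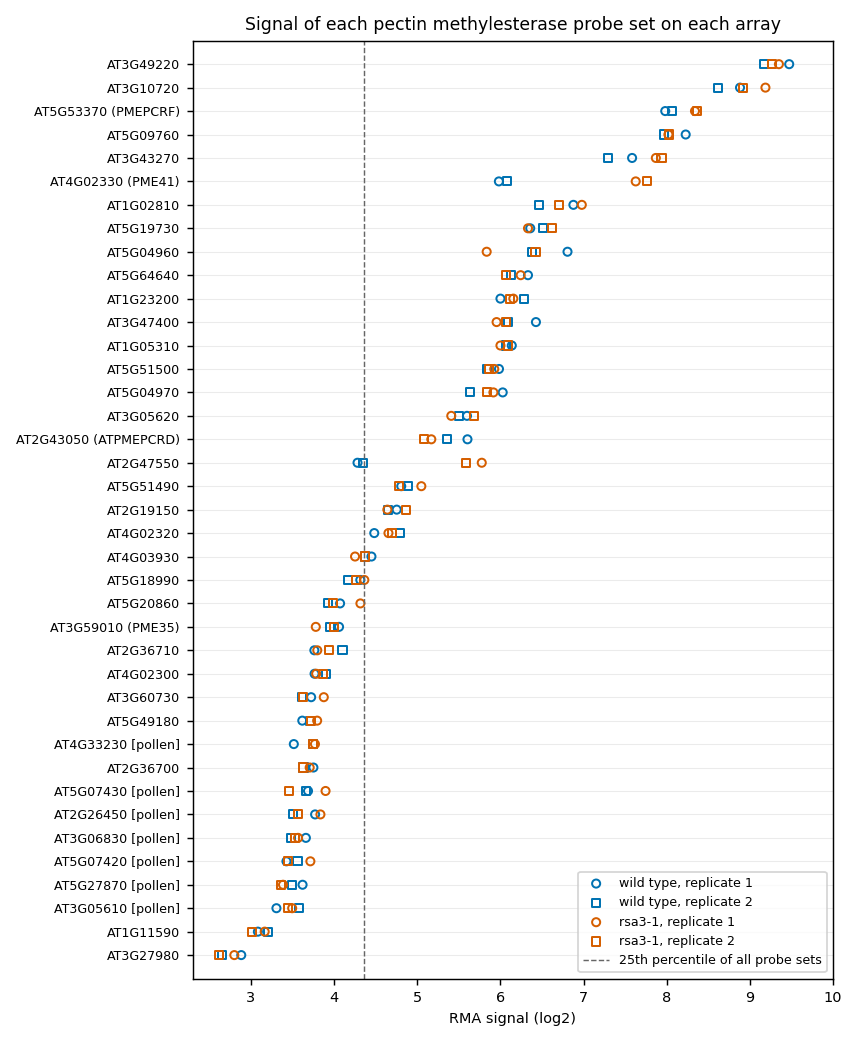
Log2 RMA signal (x axis) of the 39 pectin methylesterase genes on each of the 4 arrays, rows in order of mean signal, with wild type in blue and rsa3-1 in orange and the replicates as circles and squares. Points of a gene lie close together in nearly every row, and those of PME41 and AT2G47550 fall into separate pairs by genotype; the dashed line marks 4.36, the 25th percentile of all probe sets.

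The comparison asks which pectin methylesterase transcripts differ between rsa3-1 and wild type under salt. In rsa3-1, 2 of the 39 genes rose, 0 fell and 37 did not pass (limma, p adjusted over all 22746 probe sets, threshold 0.05). Over all probe sets 1.13% passed, 0.659% as higher and 0.466% as lower. At an unadjusted p under 0.05 there were 5 of the 39 (12.8%), 4 higher and 1 lower, against 9.68% of all probe sets. The members were chosen with earlier results of these arrays known, so these shares are a description. In whole seedlings, a change in the share of cells that hold a transcript and a change in transcript per cell cannot be told apart.

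PME41 (AT4G02330, also ATPMEPCRB), a pectin methylesterase known from work on chilling tolerance, showed the largest difference of the family. Its signal was 5.98 and 6.09 in the wild type replicates, against 7.63 and 7.76 in the rsa3-1 replicates. Both rsa3-1 arrays were thus well above both wild type arrays, and the gap between genotypes far exceeded the gap within either. The mean rose from 6.03 ± 0.07 to 7.69 ± 0.10 (SD, n = 2 each), which is 1.66 ± 0.10 (standard error) as a log2 difference, at a limma adjusted p of 0.00072. On a linear scale this is 3.16-fold, with a 95% interval from 2.67 to 3.75. Among the 13333 named genes it was the increase of rank 17. With each array left out in turn the log2 difference stayed between 1.59 and 1.73, and the adjusted p was at most 0.0093.

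AT2G47550, the other pectin methylesterase that rose, was at 4.28 and 4.35 in wild type against 5.78 and 5.58 in rsa3-1. Again the genotypes did not overlap. The mean went from 4.31 ± 0.04 to 5.68 ± 0.14 (SD, n = 2 each), which is 1.37 ± 0.11 (standard error) as a log2 difference, at a limma adjusted p of 0.0021, or 2.58-fold with a 95% interval from 2.16 to 3.07. Its wild type mean is below the 25th percentile of all signals and may be background, which leaves the size of the rise uncertain. It ranked 26 among increases of named genes, and its adjusted p was at most 0.020 with any one array left out.

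**Figure D2:**
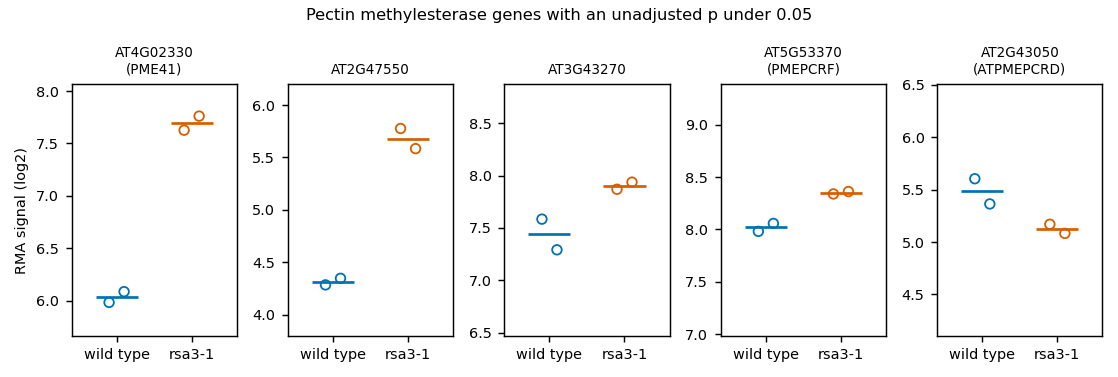
Log2 RMA signal of the 5 pectin methylesterase genes with an unadjusted p under 0.05, each array as a point and each genotype mean as a line (n = 2 each); every panel spans the same height, and the axes do not start at 0. PME41 and AT2G47550 passed after adjustment over all probe sets, and the other panels show genotypes that do not overlap but differ by less than 0.5.

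Of the 3 other genes with an unadjusted p under 0.05, 2 had higher values in rsa3-1. AT3G43270 was at 7.58 and 7.29 in wild type against 7.87 and 7.94 in rsa3-1, a log2 difference of 0.47 (limma adjusted p = 0.231). The genotypes did not overlap, but the wild type replicates were spread (SD 0.21, against 0.05 in rsa3-1). PMEPCRF (AT5G53370) had tighter replicates, 7.98 and 8.06 against 8.34 and 8.36, and a difference of 0.33 (adjusted p = 0.294). ATPMEPCRD (AT2G43050) had lower values in rsa3-1, 5.17 and 5.08 against 5.60 and 5.36, a difference of -0.36 (adjusted p = 0.353).

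The largest lower value was that of AT5G04960, at 6.81 and 6.39 in wild type against 5.84 and 6.42 in rsa3-1. Here rsa3-1 replicate 2 lay within the wild type range and replicate 1 below it, so the log2 difference of -0.47 had a wide 95% interval, from -0.96 to 0.03 (adjusted p = 0.544). Both root hair markers measured (2 of 4 listed) had lower values in rsa3-1 without passing. These expansins, EXPA18 and EXPA7, were at -0.37 and -0.28. Their summed log2 values were 14.30 and 13.99 in wild type against 13.29 and 13.69 in rsa3-1. The part of root hairs in the AT5G04960 values was not tested. RHS12, the pectin methylesterase named for root hairs, is among the loci not analysed here.

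Among bright probe sets of the family, those of AT3G49220 and AT5G09760 had near-equal values in both genotypes. AT3G49220, which is known from heat tolerance, was at 9.47 and 9.17 in wild type against 9.35 and 9.27 in rsa3-1. The rsa3-1 arrays fell inside the wild type range, with a log2 difference of -0.01 and a 95% interval from -0.31 to 0.28. AT5G09760, at 8.23 and 7.97 against 8.02 and 8.02, differed by -0.07 (interval -0.35 to 0.20). AT3G10720 did not overlap between genotypes, at 8.88 and 8.61 against 9.19 and 8.91, but the rsa3-1 replicate 2 value exceeded wild type replicate 1 by a margin much smaller than either replicate gap, and its difference of 0.30 did not pass (adjusted p = 0.547).

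Next came genes of middling signal. AT1G02810 was at 6.88 and 6.46 in wild type against 6.98 and 6.70 in rsa3-1, a difference of 0.17 with overlapping genotypes. AT3G47400 was lower in value by 0.25, at 6.43 and 6.10 against 5.95 and 6.06, without overlap and without passing (adjusted p = 0.619). In AT1G23200, a gene known from seed mucilage and guard cells, the values 6.00 and 6.28 in wild type enclosed 6.16 and 6.11 in rsa3-1. The remaining genes above the lowest 25% were close to 0: AT5G19730 at 0.04, AT5G64640 at -0.07, AT1G05310 at -0.06, AT5G04970 at 0.05, AT3G05620 at -0.004, AT2G19150 at 0.05, AT5G51490 at 0.07, AT5G51500 at -0.02, AT4G02320 at 0.04 and AT4G03930 at -0.10.

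All 7 measured genes of the 12 listed as known from pollen lay in the lowest 25% of signals. Of these genes 0 passed, beside 1.13% of all probe sets. Their values on the 4 arrays ran from 3.31 to 3.90, and their log2 differences from -0.18 in AT5G27870 to 0.12 in AT4G33230. AT5G27870 was the one of these without overlap, at 3.62 and 3.49 in wild type against 3.39 and 3.36 in rsa3-1. The other 5 were AT5G07420 at 0.09, AT2G26450 at 0.06, AT3G05610 at 0.03, AT3G06830 at -0.03 and AT5G07430 at 0.003. The shared probe set of PPME1 and AT5G07410, both pollen genes, read 3.04 and 3.07 in wild type against 3.15 and 2.84 in rsa3-1. That of VGD1 and VGDH1, which act in pollen tube growth, read 3.84 and 3.47 against 3.47 and 3.48, so that wild type replicate 1 alone was high.

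Another 10 genes were as dim. AT5G49180, known from seed coat mucilage, was at 3.62 and 3.71 in wild type against 3.80 and 3.72 in rsa3-1, a difference of 0.09. PME35 (AT3G59010), known from stem strength, was at 4.06 and 3.96 against 3.78 and 3.999 and differed by -0.12 with overlap. AT5G20860 was at 0.15, AT3G60730 at 0.08, AT5G18990 at 0.07, AT2G36710 at -0.06, AT2G36700 at -0.02 and AT4G02300 at -0.01. AT1G11590 and AT3G27980 differed by -0.06 each; the values of AT3G27980, from 2.62 to 2.89, lay next to the lowest on any array, 2.57. One seed coat gene that is no member moved with genotype: DELTA-VPE, a vacuolar processing enzyme, fell from 7.45 and 7.42 in wild type to 5.74 and 5.07 in rsa3-1 (limma adjusted p = 0.0050), while the peroxidase gene AT3G50990, the other of 2 measured seed and seed coat markers of 8 listed, differed by 0.05. The part of seed coat remains in the pectin methylesterase values was not tested.

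Across the 39 genes the median log2 difference was 0.003, beside -0.009 for all probe sets, with 20 positive and 19 negative values. Apart from PME41 and AT2G47550 the differences ran from -0.47 to 0.47, and 31 of the 37 were smaller than 0.2 in size. Genotypes did not overlap in 10 of the 39 (25.6%), against 38.6% of all probe sets. In 6 of these rsa3-1 was higher (background 17.8%) and in 4 it was lower (background 20.9%). The median absolute difference was 0.069 in the family and 0.093 over all probe sets. In 37 genes the 95% interval lay within 2-fold in both directions, and in 33 within 1.5-fold; these intervals are not adjusted for the number of genes, and RMA compresses differences among dim probe sets.

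**Figure D3:**
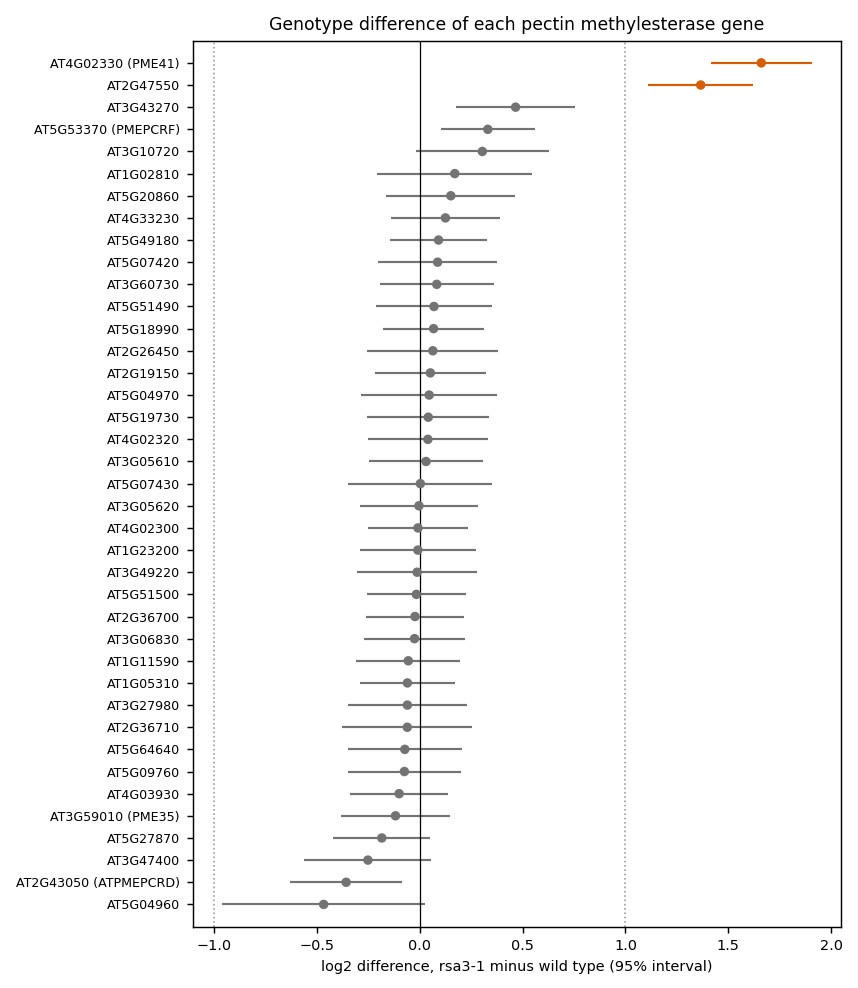
Log2 difference of each of the 39 genes, rsa3-1 minus wild type (points), with its 95% interval from limma (lines), in order of size; orange marks the 2 genes that passed and dotted lines mark 2-fold. PME41 at 1.66 and AT2G47550 at 1.37 lie to the right of the 2-fold line with their whole intervals, and the other 37 intervals lie between the 2-fold lines.

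Pectin methylesterase genes often lie next to each other on the chromosome. In the RefSeq table of assembly TAIR10.1, 17 pairs of listed genes had at most 2 protein-coding genes between them, and in 8 of these pairs both genes were measured. PME41 lies beside AT4G02320 and near AT4G02300 (PME39). These neighbours were at 0.04 (95% interval -0.25 to 0.33) and -0.01 (interval -0.25 to 0.23), against 1.42 to 1.91 for PME41. AT5G04960 and its neighbour AT5G04970 were at -0.47 and 0.05. In the other 4 measured pairs (AT2G36700 with AT2G36710, AT3G05610 with AT3G05620, AT5G07420 with AT5G07430 and AT5G51490 with AT5G51500) no difference exceeded 0.09 in size. The inhibitor gene AT5G51520, near the last of these pairs, was at -0.007, and the inhibitor gene AT3G47380, near AT3G47400, was at -0.17. Of the paired genes, AT4G02300, AT2G36700, AT2G36710, AT3G05610, AT5G07420 and AT5G07430 lay in the lowest 25% of signals and may be background.

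Inhibitors of the enzymes were measured for 23 of 34 listed genes, and 0 passed, beside 1.13% of all probe sets. A count of 0 among 23 genes does not set the list apart from that share. At an unadjusted p under 0.05 there were 5 of the 23, beside 9.68% of all probe sets. Of those 5, 4 had lower values in rsa3-1 and 1 had a higher value. AT1G70720 was at 5.36 and 5.55 in wild type against 5.01 and 4.87 in rsa3-1, a log2 difference of -0.51 (limma adjusted p = 0.131). AT5G62360 and AT5G62350 were at -0.36 and -0.27, the latter with a bright signal of 12.36 and 12.33 against 12.09 and 12.06, and AT5G20740 was at -0.35. AT2G01610 had a higher value, 6.04 and 5.87 against 6.52 and 6.27, a difference of 0.44 (adjusted p = 0.267). The list had 6 positive and 17 negative differences and a median of -0.03, beside a median of -0.009 for all probe sets.

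Polygalacturonases cut the de-esterified chain, and 1 of 42 measured (64 listed) rose while 0 fell, beside 0.659% higher and 0.466% lower among all probe sets; a single gene does not set the list apart from that background. AT3G15720 was at 7.26 and 7.02 in wild type against 8.12 and 7.89 in rsa3-1, which is 0.87 ± 0.13 (standard error) as a log2 difference, at a limma adjusted p of 0.026. Its genotypes did not overlap, but the gene no longer passed on leaving out wild type replicate 1 (adjusted p = 0.063), wild type replicate 2 (0.12) or rsa3-1 replicate 1 (0.092), at log2 differences of 0.99, 0.75 and 0.76. AT2G43890 and AT3G59850 were next by p at 0.41 and 0.32 without passing, and the list median was -0.002.

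Other pectin genes did not pass, where 1.13% of all probe sets did. Among 23 of 26 pectate lyases, which cleave pectin by elimination, AT3G53190 was at 0.32, AT5G48900 at -0.29 and AT3G24670 at -0.21, with a median of -0.04. At an unadjusted p under 0.05 there were 2 of the 23, a share no higher than the 9.68% of all probe sets. Of 6 measured pectin acetylesterases (12 listed) AT3G09405 was at 0.30, AT1G09550 at -0.13 and AT5G26670 at -0.11. SBT3.5, a subtilase known to process a pectin methylesterase, was at 5.91 and 6.16 in wild type against 6.46 and 6.50 in rsa3-1, without overlap, a difference of 0.45 (limma adjusted p = 0.218). The subtilases ARA12 and S1P were at -0.11 and 0.08. GAUT15 of the pectin synthases (1 of 15 measured) was at -0.07, AT3G49720 of the methyltransferase and epimerase list (1 of 10) at -0.007, and the wall-sensing receptor kinases FER and THE1 (2 of 7) at -0.16 and -0.06.

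**Figure D4:**
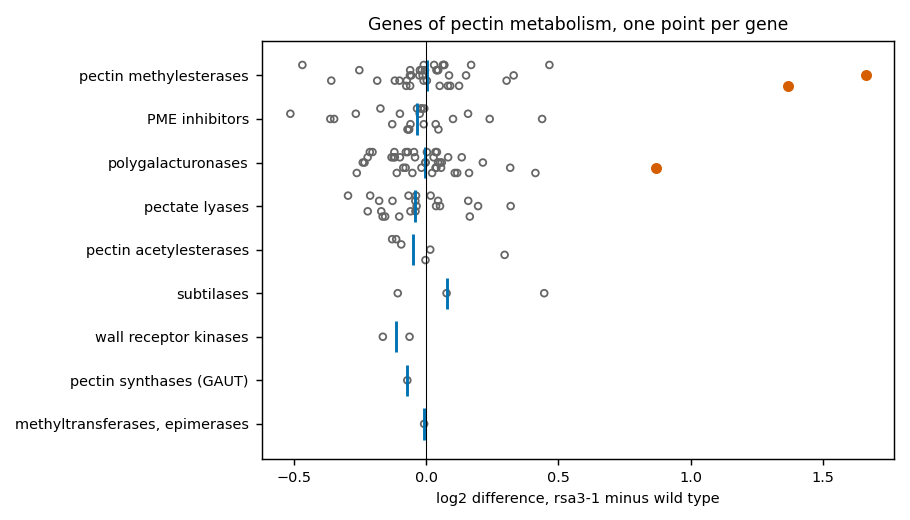
Log2 difference, rsa3-1 minus wild type, of each measured gene of pectin metabolism (points, shifted vertically to separate them), with orange for genes that passed and a blue line at the median of each list. Apart from PME41, AT2G47550 and the polygalacturonase AT3G15720 at 0.87, the points lie between -0.51 and 0.47.

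Guard cell markers FMA and AT1G22690 (2 of 3 measured) were at -0.09 and -0.10, and PYK10 at -0.11. The shoot markers HPR, PSBW, RCA and PSAE-1 were at 0.28, 0.11, 0.05 and 0.04. None of these genes passed the threshold. Summed log2 values of the 4 shoot markers were 51.34 and 51.44 in wild type against 51.81 and 51.94 in rsa3-1, and those of the 6 pollen markers 22.59 and 23.60 against 22.98 and 22.23. The part of tissue shares in the rise of PME41 and AT2G47550 was not tested.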

How the data were processed

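Total RNA of whole seedlings was hybridized to ATH1 arrays. The authors deposited log2 signals made by RMA, per the submitters' processing notes. RMA as a method corrects for background, normalizes arrays to each other and combines the probes of a set, so a shift shared by most transcripts would not be seen. Its software version is not given in the sources used here. Values were kept as the authors deposited them, in log2, without further scaling. Probe sets were joined to loci through the platform annotation and the RefSeq table of TAIR10.1: of 22746 tested (64 array controls left out), 13513 named 1 gene, 503 several, and 8730 are unnamed here.

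Genotypes were compared with limma 3.58.1 in R 4.3.3 (lmFit, eBayes, two-sided, Benjamini-Hochberg over all probe sets, threshold 0.05); the procedure was tested on simulated data. Replicates have no stated separate origin beyond the design text, and their number limits the precision. Members, role groups and lists were chosen with earlier results of these data known. Named genes are those that passed, the 12 of smallest p, the 6 brightest and 3 dimmest, those with a listed role, and up to 3 genes a list; others are given with their values. Alternatives covered normalization, dim filters, variance model, array weights, replicate block, each array left out, and the mean of a gene's probe sets.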

Additional observations from a re-analysis of the deposited data

How the results depend on the processing

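PME41 kept its direction and its call under all alternatives run. AT2G47550 kept both except with the replicate block, where its adjusted p was 0.060 at a log2 difference of 1.37, and with filters at a mean log2 value of 5 or 6, which remove it from the fit. The count of pectin methylesterase genes that passed was therefore 1 with the replicate block and 1 with either filter, against 2. With the block 42 probe sets passed, against 256 (deviations of same-numbered arrays correlated at 0.013, no sign that the numbers pair them), and the adjusted p of AT3G15720 was 0.093. When one array was left out, between 102 and 222 probe sets passed (102 lacking wild type replicate 1, 127 lacking wild type replicate 2 and 143 lacking rsa3-1 replicate 2) and 2 pectin methylesterase genes did so each time; the single array left in a genotype is then taken to be as variable as the pair in the other. The family median ran from -0.02 to 0.04 over the alternatives. Directions turned only in genes that did not pass. AT1G23200 moved to 0.0054 with quantile normalization and 0.0046 with arrays at a common median, and AT3G49220 to 0.0008 with a common median. With each array left out, log2 differences ran from -0.205 to 0.056 in AT5G09760, -0.16 to 0.14 in AT3G49220, -0.177 to 0.057 in AT3G27980, -0.11 to 0.17 in AT3G05610, -0.112 to 0.061 in AT3G06830, -0.037 to 0.378 in AT1G02810, -0.130 to 0.018 in AT1G11590, -0.069 to 0.196 in AT2G26450, -0.15 to 0.13 in AT1G23200, -0.22 to 0.22 in AT5G07430, -0.0145 to 0.3167 in AT5G20860 and -0.0475 to 0.2211 in AT5G07420. Why the block and left-out arrays changed these values was not tested. Dim signals limit what can be seen of the 17 genes in the lowest 25% of signals.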
